A study of Homo sapiens with 12 samples.

Results

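Translation initiation factors load the ribosome onto messenger RNA and set it at the start codon. The genes described here are the rows of 2 expression tables whose names open with EIF and a digit from 1 to 6 and hold no hyphen, which gave 56 of 23713 rows. The rule left out 3 rows with a hyphen, the readthrough genes ANKHD1-EIF4EBP3 and SENP3-EIF4A1 and the antisense RNA EIF1B-AS1. Of the 56, 53 were active, which means above 1 FPKM (a read count scaled to transcript length and library size) in at least 1 of 12 libraries. They stand among 14251 active genes. The other 3, EIF1AY, EIF3IP1 and EIF4E1B, did not pass that minimum and were not tested.

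The libraries hold polyadenylated RNA of 2 established human ovarian cancer lines, KURAMOCHI (Ku) grown in RPMI and COV362 (Cov) grown in DMEM, both with 10% fetal bovine serum and both labelled as untransduced controls. Cells of each line spent 6 hr in DMSO, in 50 nM THZ1 or in 250 nM THZ1, with 2 biological replicates per condition. CDK7, CDK12 and CDK13 phosphorylate RNA polymerase II, and all of them are targets of THZ1, which forms a covalent bond with CDK7. RNA was taken per cell count and mixed with ERCC spike-in RNAs, and the FPKM values were scaled to those RNAs by the study's authors, so a value stands for RNA per cell. Each value is a mean over the cells of a culture, so a change in some cells and a smaller change in all of them cannot be told apart. The tables hold no counts, so the depth is unknown, and each line was scaled separately, so levels are compared within a line. DMSO means of the labelled cell type's markers were high for KRT8 (2432 FPKM in Ku, 1133 in Cov), KRT18 (2135 and 792), PAX8 (136 and 124) and SOX17 (143 and 117). EPCAM measured 4.13 in Ku and 162 in Cov, KRT19 47.6 and 221, and MECOM 24.1 and 27.7. CDH1 (0.468) and MUC16 (0.166) were under 1 FPKM in Ku and measured 4.45 and 5.71 in Cov, while WT1 measured 56.8 in Ku and was under 1 FPKM in Cov (0.653). Of the markers of other cells, the leukocyte gene PTPRC (0.235 and 0.130) and the endothelial gene PECAM1 (0.156 and 0.338) were under 1 FPKM, and the collagen gene COL1A1 measured 2.53 and 3.17.

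Initiation starts when eIF1, eIF1A, eIF3, eIF5 and the eIF2 complex, which carries the initiator tRNA, gather on the small ribosomal subunit. The eIF4F complex, made of the cap-binding protein eIF4E, the helicase eIF4A and the scaffold eIF4G, brings that subunit to the capped end of the mRNA, and eIF5B then joins the large subunit at the start codon. Kinases of eIF2 and the eIF4E-binding proteins restrain these steps, and raised eIF4F activity is a known feature of many carcinomas.

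In both lines nearly every initiation factor mRNA was lower per cell after 250 nM THZ1, and the members differed widely in how far they went down. The comparisons with DMSO ask what each dose did, and 250 nM against 50 nM asks what the higher dose added. A gene was called lower or higher when its limma p, adjusted by Benjamini-Hochberg over all 14251 active genes, was under 0.001 and its log2 fold change lay beyond 0.5. At 250 nM, 46 of 53 members were called lower in Ku, where 68.6% of all active genes were, and 51 of 53 in Cov, where 84.0% were. At 50 nM the lines differed in number: 3 members were called lower in Ku (11.3% of all active genes), namely EIF1B, EIF4A2 and EIF5, against 44 in Cov (70.5% of all). Whether the lines differ was not tested. From 50 to 250 nM, 27 members were called lower in Ku (36.0% of all) and 18 in Cov (24.4% of all). On the spike-in scale limma called a member higher in none of these 6 comparisons, and 0 members were higher at an unadjusted p under 0.05. Of all active genes, those called higher made up 0.0842%, 0.0491% and 0.0421% in Ku and 0.0772%, 0.105% and 0.0842% in Cov, in the order 50 nM against DMSO, 250 nM against DMSO and 250 nM against 50 nM. The comparisons of a line share libraries, so their counts are given side by side and no overlap is drawn from them.

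Single libraries weigh on some of these counts. Leaving out any 1 of the 6 Ku libraries took the 3 calls of Ku at 50 nM to 0. The count of 46 in Ku at 250 nM fell to 29 without replicate 2 of the 250 nM group, and the 44 of Cov at 50 nM to 14 without replicate 2 of its DMSO group. For 250 nM against 50 nM in Ku, the 27 became 3 and 7 without replicate 1 or 2 of the 50 nM group and 5 without either 250 nM library. In Cov the 18 became 10 without either DMSO library, 9 without replicate 2 of 50 nM, and 6 and 5 without replicate 1 or 2 of 250 nM.

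**Figure D1:**
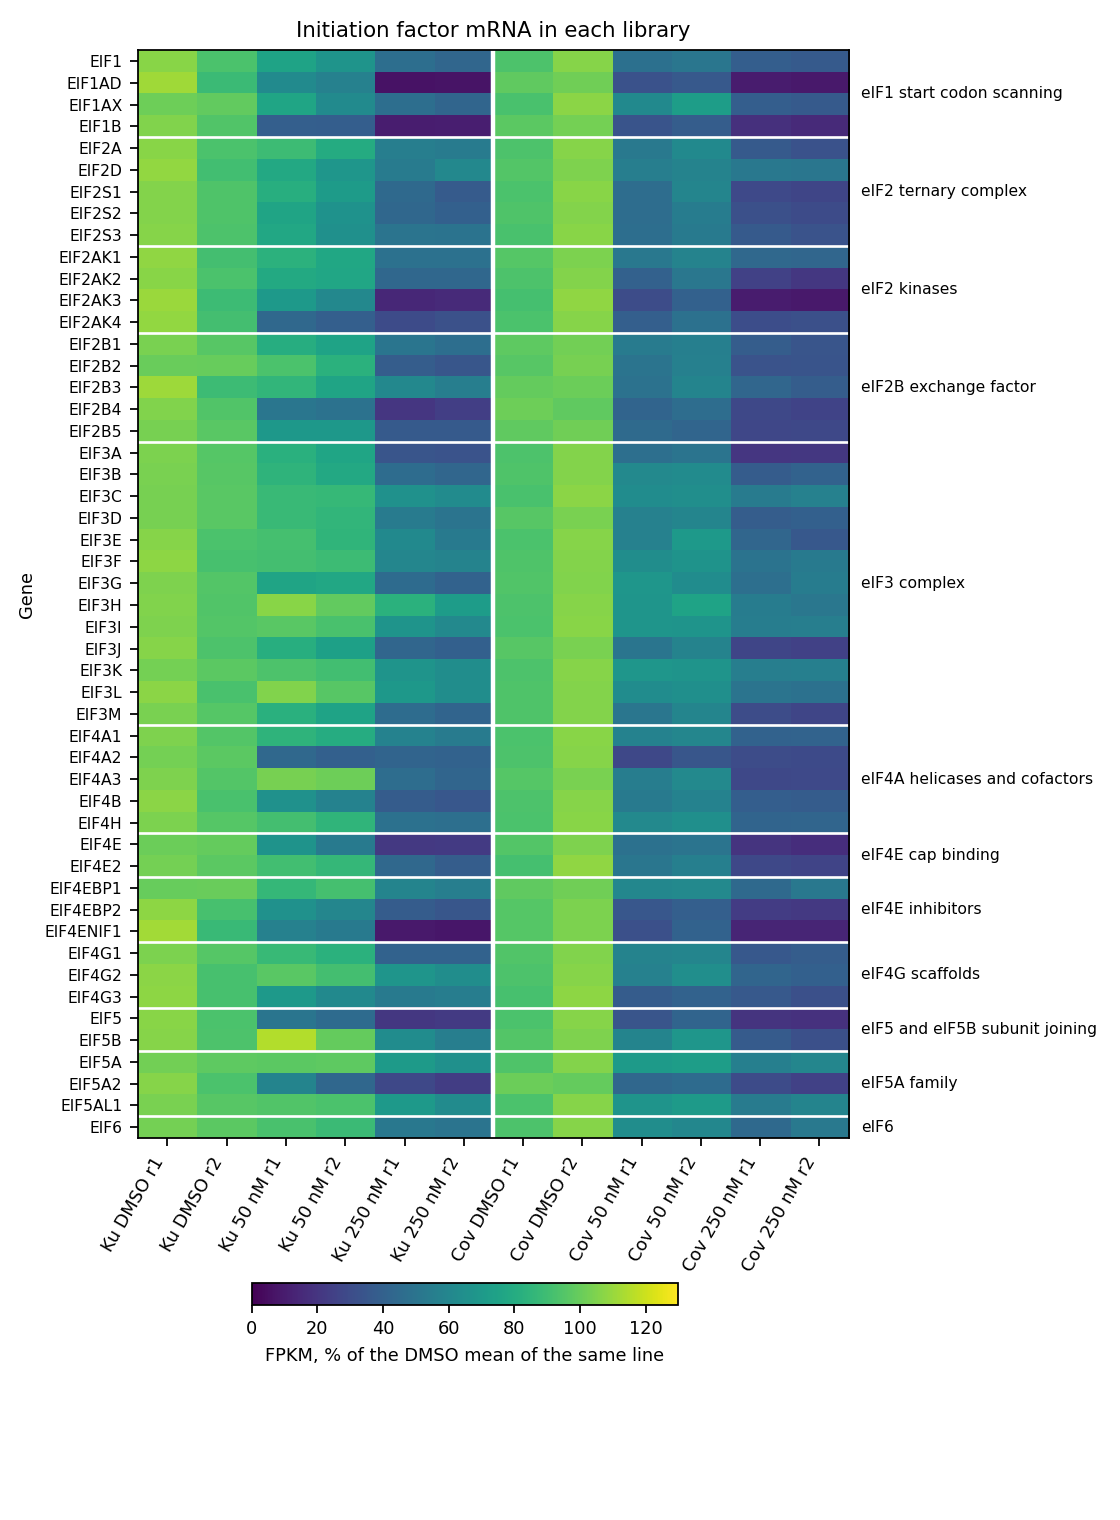
Each cell is 1 active member (vertical axis, grouped by role) in 1 library (horizontal axis), coloured by its FPKM as a percent of the DMSO mean of the same line; members under 1 FPKM in the DMSO group of either line are left out. At 250 nM EIF1AD, EIF1B, EIF4ENIF1 and EIF2AK3 are darkest, between 6.73% and 16.7% of DMSO, while EIF5A and EIF3H keep 53.2% to 77.6%; on the spike-in scale shown all of these are lower than in DMSO, but EIF5A and EIF3H turn to higher when each library is scaled to its own median gene.

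Most genes of these cells went down, so the members were set against that shift. The median log2 fold change at 250 nM was -1.11 over all active genes and -1.12 over the 53 members in Ku, and -1.31 and -1.41 in Cov. At 50 nM the medians were -0.40 and -0.33 in Ku and -0.85 and -0.85 in Cov, and from 50 to 250 nM -0.62 and -0.72 in Ku and -0.41 and -0.56 in Cov. These are changes of log2(FPKM + 1), in which the added 1 shrinks the change of genes with low FPKM. With 0.1 added instead, the medians at 250 nM were -1.39 over all and -1.15 over the members in Ku, and -1.55 and -1.46 in Cov. As percent of the DMSO mean, the medians at 250 nM were 36.3% and 45.0% in Ku, and 33.0% and 36.3% in Cov. The order of members and all genes therefore depends on the measure. Each library was also centred on its median gene in log2(FPKM + 1), which gives changes relative to that gene. On that scale 7 members were called lower (22.9% of all active genes) and 8 higher (14.8%) in Ku at 250 nM, and 10 lower (22.4%) and 1 higher (13.9%) in Cov. Of the 8, EIF3CL and EIF4E3 lie near or under 1 FPKM in Ku, where log2(FPKM + 1) moves little. With median-of-ratios scaling, which divides each library by its median ratio to a common reference, the counts were 6 lower (19% of all) and 13 higher (11.1%) in Ku and 8 lower (18.9%) and 9 higher (8.57%) in Cov. From 50 to 250 nM, members called higher in Ku numbered 1 (1.92% of all) with median centring and 2 (1.39%) with median-of-ratios scaling. In Cov 0 were with either. The direction of many members therefore depends on the scale: lower per cell, but on either side of the median gene. The median log2 fold change of the members at 250 nM was -0.008 in Ku and -0.11 in Cov with median centring. With median-of-ratios scaling it was 0.28 and 0.15. Median centring removes a shift of log2(FPKM + 1), which genes with low FPKM make smaller, while median-of-ratios scaling divides the FPKM itself. Values of well expressed members relative to the median gene can therefore lie lower than with median-of-ratios scaling, as for EIF1 in Ku at 250 nM (-0.03 against 0.31). EIF1AD, EIF1B, EIF2AK3, EIF4ENIF1 and EIF5 were called lower under all 3 scalings in both lines. EIF5A was the only member called lower per cell in both lines yet higher relative to the median gene in both lines under each of the other scalings.

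The initiation factor genes are strongly expressed, and their level bears on this comparison. In DMSO, 48 members were above 10 FPKM in each line, with a median of 103 FPKM against 31.0 for all such genes with an annotated position in Ku and 141 against 34.2 in Cov. These level limits, 10 and 50 FPKM, were chosen after the values were seen. Among genes above 10 FPKM, members called lower numbered 3 of 48 (13.4% of all such genes), 43 (85.2%) and 25 (53.1%) in Ku at 50 nM, at 250 nM and from 50 to 250 nM, and 41 (81.8%), 48 (96.6%) and 17 (34.3%) in Cov. The level left at 250 nM, given as the group mean in percent of the DMSO mean, had a median of 46.5% for these members against 37.3% for all such genes in Ku, and 36.7% against 32.2% in Cov. At 50 nM it was 80.1% against 73.3% in Ku and 55.3% against 50.9% in Cov. Among genes above 50 FPKM the medians at 250 nM were 51.1% for 33 members against 50.9% in Ku, and 38.2% for 39 members against 40.5% in Cov. Across genes above 10 FPKM with an annotated position, the percent left at 250 nM rose with the DMSO level (Spearman's rho 0.381 in Ku over 7119 genes and 0.338 in Cov over 7598). Over the 48 members rho was 0.523 in Ku and 0.554 in Cov. The DMSO level is part of both measures and genes are not independent replicates, so these are descriptions. With gene length rho was 0.182 and -0.0202 over the members, and 0.0238 and -0.149 over all genes.

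**Figure D2:**
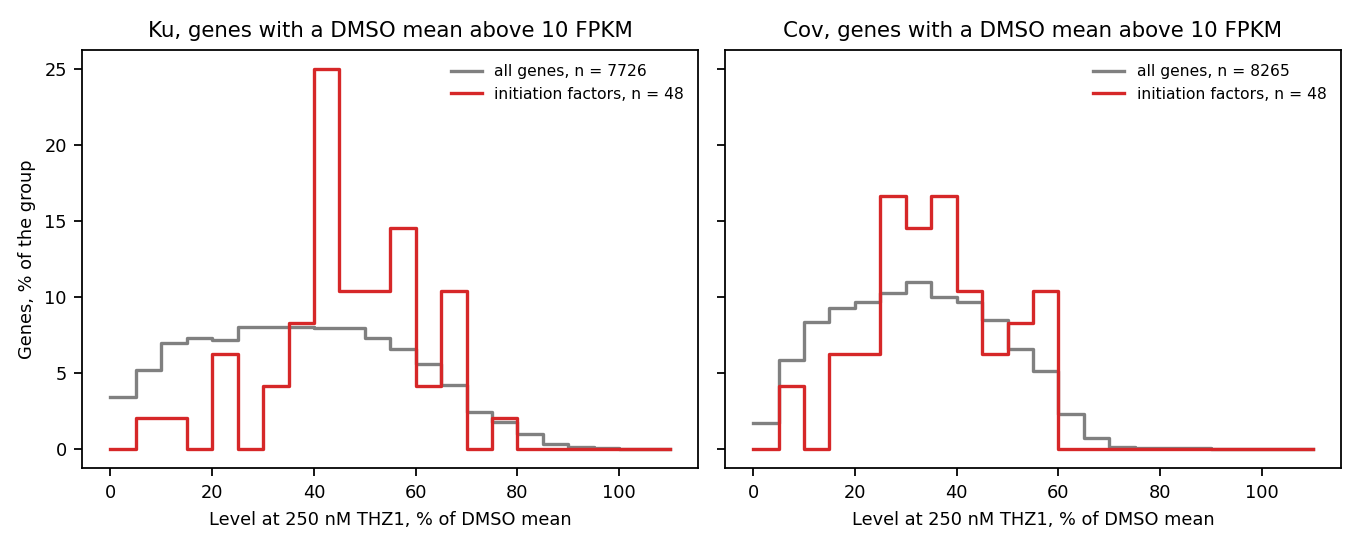
Histograms of the level at 250 nM THZ1 in percent of the DMSO mean (horizontal axis) for genes with a DMSO mean above 10 FPKM, as the percent of genes in each group (vertical axis), for 48 initiation factors in red and all 7726 (Ku) or 8265 (Cov) genes in grey. The medians are 46.5% and 37.3% in Ku and 36.7% and 32.2% in Cov; on the spike-in scale shown every plotted member is lower than in DMSO, which turns for many of them with scaling to the median gene.

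The doses were mostly graded. For 44 of 53 members in Ku the DMSO values all exceeded those at 50 nM, and these in turn all exceeded those at 250 nM, an order held by 66.7% of all active genes. In Cov 50 of 53 members held it (73.8% of all active genes). In Ku the members outside this order were EIF3CL, EIF3H, EIF3I, EIF3L, EIF4A2, EIF4A3, EIF4G2, EIF5A and EIF5B. In Cov they were EIF3CL, EIF4A2 and EIF4EBP3. The sum of all members' FPKM made up 0.845% and 0.772% of all FPKM in the Ku DMSO libraries, 0.860% and 0.852% at 50 nM and 0.870% and 0.879% at 250 nM. In Cov it made up 0.724% and 0.712%, then 0.623% and 0.586%, then 0.631% and 0.626%, so this share was lowest at 50 nM in Cov and did not follow the dose there.

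Promoters of 4 members are shown because their mRNAs mark the spread of responses: EIF4A2 went down at 50 nM and differed little between the doses, EIF4E and EIF1B were among the lowest at 250 nM, and EIF3K was among the highest. They are RefSeq sequences on GRCh38.p14, each 250 bases before to 50 after the annotated start. EIF4A2 lies at chr3:186783327-186783626, plus strand. EIF4E lies at chr4:98929084-98929383, minus strand. EIF1B lies at chr3:40309457-40309756, plus strand, and EIF3K at chr19:38618938-38619237, plus strand. Capitals mark the letters CACGTG (the E-box), TATAAA (the TATA box), and a start at C followed by at least 4 C or T, like the oligopyrimidine tract known from mRNAs of the translation machinery.
EIF4A2: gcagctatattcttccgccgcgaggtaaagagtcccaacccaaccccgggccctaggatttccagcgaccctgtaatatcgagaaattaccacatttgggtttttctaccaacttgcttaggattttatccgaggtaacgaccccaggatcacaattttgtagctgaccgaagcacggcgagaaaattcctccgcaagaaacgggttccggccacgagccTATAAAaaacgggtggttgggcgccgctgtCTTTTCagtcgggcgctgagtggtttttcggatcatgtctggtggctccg
EIF4E: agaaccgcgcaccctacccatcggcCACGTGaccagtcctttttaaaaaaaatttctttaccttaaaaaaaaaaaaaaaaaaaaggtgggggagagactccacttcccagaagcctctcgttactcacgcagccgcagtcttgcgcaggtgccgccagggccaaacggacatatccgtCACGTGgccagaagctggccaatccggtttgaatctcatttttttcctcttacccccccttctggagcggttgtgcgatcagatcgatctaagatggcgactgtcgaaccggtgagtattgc
EIF1B: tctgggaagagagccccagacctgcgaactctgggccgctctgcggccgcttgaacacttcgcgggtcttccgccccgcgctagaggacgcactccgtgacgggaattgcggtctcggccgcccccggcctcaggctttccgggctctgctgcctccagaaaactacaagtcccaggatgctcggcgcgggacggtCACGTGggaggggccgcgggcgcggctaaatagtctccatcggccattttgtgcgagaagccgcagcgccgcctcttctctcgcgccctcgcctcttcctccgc
EIF3K: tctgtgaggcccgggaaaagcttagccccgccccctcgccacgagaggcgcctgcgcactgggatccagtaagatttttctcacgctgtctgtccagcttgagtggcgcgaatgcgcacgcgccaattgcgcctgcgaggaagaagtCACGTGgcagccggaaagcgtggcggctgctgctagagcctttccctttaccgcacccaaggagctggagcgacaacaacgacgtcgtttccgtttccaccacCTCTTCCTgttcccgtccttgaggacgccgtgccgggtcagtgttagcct
EIF4A2 holds TATAAA from base -30 and a start tract of 6 bases, where bases before the start count back from -1. EIF4E holds CACGTG from -225 and from -72, EIF1B from -54, and EIF3K from -103 together with a start tract of 8 bases. The table holds 61 promoters for 46 of the member genes. CACGTG, searched on both strands, stood in 12 of the 61 (19.7%) and in 7.26% of all 35116 promoters of the same length. The pyrimidine start, read on the transcribed strand at the annotated first base, stood in 9 (14.8%) against 4.07%. They were EIF2A, EIF2D, EIF2S3, EIF3D, EIF3F, EIF3K, EIF3M, EIF4A2 and EIF4B, which kept from 36.5% (EIF4B) to 65.7% (EIF3K) of DMSO in Ku at 250 nM and from 28.8% (EIF3M) to 55.8% (EIF3K) in Cov. Of these 9, 6 in Ku and 5 in Cov kept more than the medians of all members above 10 FPKM in DMSO, 46.5% and 36.7%. On both strands, TATAAA was in 2 member promoters (EIF4A2 and EIF4EBP3; 11.5% of all), CCGGAAG in 13 (10.3% of all) and CCAAT in 23 (34.6% of all). A match describes letters in a window and shows no binding.

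The eIF1 group, which guards start codon choice during scanning, split widely. EIF1 encodes a small protein bound near the P site of the small subunit. In Ku, EIF1 measured 333 and 290.0 FPKM in the DMSO libraries, 234 and 209 at 50 nM and 147 and 134 at 250 nM. In Cov it measured 470.0 and 533 FPKM in the DMSO libraries, 241 and 255 at 50 nM and 194 and 186 at 250 nM. The 3 groups did not overlap in either line. EIF1B is a close paralog of EIF1 on chromosome 3 (chr3:40351198-40353915 on GRCh37, plus strand). The library kit was stranded, but whether strand was used to compute the FPKM is not stated. Whether reads of the antisense RNA EIF1B-AS1 entered the EIF1B values is therefore unknown. EIF1B measured 46.9 and 42.3 FPKM with DMSO, 17.5 and 17.3 with 50 nM and 4.58 and 4.85 with 250 nM in Ku. In Cov, EIF1B measured 105 and 111 FPKM with DMSO, 36.5 and 41.1 with 50 nM and 19.2 and 16.7 with 250 nM. Each dose group lay clear of the next, with 10.6% of DMSO left at 250 nM in Ku and 16.7% in Cov, against 45.1% and 37.9% for EIF1. The log2 fold change of EIF1B at 250 nM was -3.00 ± 0.09 (SE, n = 2 per group, adjusted p = 6.55e-06) in Ku and -2.52 ± 0.10 (SE, n = 2 per group, adjusted p = 9.76e-07) in Cov, and it kept its sign under the other scalings. For EIF1 it was -1.14 ± 0.10 in Ku and -1.39 ± 0.09 in Cov per cell, -0.03 and -0.09 relative to the median gene, and 0.31 and 0.22 with median-of-ratios scaling.

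Within a library the scale cancels, so the ratio of EIF1B to EIF1 does not depend on it. It was 0.141 and 0.146 in Ku DMSO, 0.0747 and 0.0826 at 50 nM and 0.0311 and 0.0362 at 250 nM. In Cov it went from 0.223 and 0.207 through 0.152 and 0.161 to 0.0990 and 0.0901. The groups did not overlap, and at 250 nM the ratio stood at 0.235 times its DMSO mean in Ku and 0.440 times in Cov. This and the other gene pairs given as ratios were chosen after their values were seen. EIF1AX, which encodes eIF1A, held 44.7% and 37.9% of its DMSO level at 250 nM. It measured 36.3 and 35.4 FPKM in the DMSO libraries, 27.3 and 22.4 at 50 nM and 16.8 and 15.3 at 250 nM in Ku. In Cov, EIF1AX measured 81.8 and 94.9 FPKM in the DMSO libraries, 54.5 and 63.8 at 50 nM and 34.4 and 32.5 at 250 nM. EIF1AX was called lower at 250 nM in both lines, but in Ku not without either DMSO or either 250 nM library, and with median-of-ratios scaling its log2 fold change turned to 0.28 in Ku and 0.22 in Cov.

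EIF1AD, whose protein carries an eIF1A-like domain, was the lowest member of all in both lines at 250 nM by log2 fold change. In Ku it measured 20.9 and 16.7 FPKM in the DMSO libraries, 11.7 and 10.7 at 50 nM and 1.23 and 1.31 at 250 nM. In Cov it measured 35.4 and 36.5 FPKM with DMSO, 11.8 and 13.0 with 50 nM and 3.51 and 3.21 with 250 nM. No groups overlapped, and 6.73% (Ku) and 9.35% (Cov) of DMSO remained at 250 nM. In Ku most of that change lay between the doses, since 59.5% remained at 50 nM. Its log2 fold change at 250 nM was -3.12 ± 0.14 (SE, n = 2 per group, adjusted p = 1.13e-05) in Ku and -3.08 ± 0.09 (SE, n = 2 per group, adjusted p = 8.16e-07) in Cov, and -2.01 and -1.78 relative to the median gene. Among genes above 10 FPKM in DMSO, 5.27% had less left in Ku and 6.78% in Cov.

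The eIF2 complex carries the initiator tRNA, and its subunits moved within a limited range. EIF2S1 encodes the alpha subunit that the stress kinases phosphorylate. EIF2S1 measured 47.2 and 41.9 FPKM in the DMSO libraries, 36.2 and 31.8 at 50 nM and 19.8 and 16.6 at 250 nM in Ku. In Cov, EIF2S1 measured 49.4 and 56.8 FPKM in the DMSO libraries, 24.7 and 31.3 at 50 nM and 15.1 and 14.3 at 250 nM. The groups did not overlap in either line. Its log2 fold change at 250 nM was -1.25 ± 0.12 (SE, n = 2 per group, adjusted p = 0.000112) in Ku and -1.78 ± 0.13 (SE, n = 2 per group, adjusted p = 7.74e-06) in Cov per cell. Relative to the median gene it was -0.14 and -0.47, and with median-of-ratios scaling it turned to 0.16 in Ku and was -0.22 in Cov. Without replicate 1 of Ku DMSO it was -1.17 and no longer called. The 5 genes of the group, with EIF2S2, EIF2S3 and the separate tRNA-binding factors EIF2A and EIF2D, kept 40.8% (EIF2S1) to 57.4% (EIF2D) in Ku at 250 nM and 27.7% (EIF2S1) to 51.4% (EIF2D) in Cov. On the spike-in scale 4 of 5 were called lower in Ku (68.6% of all active genes) and 5 of 5 in Cov (84.0%), counts near those shares, and relative to the median gene the values ran from -0.14 to 0.35 in Ku and from -0.47 to 0.37 in Cov. With median-of-ratios scaling EIF2A and EIF2D were called higher in Ku (11.1% of all) and EIF2D in Cov (8.57%).

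EIF2AK3 encodes PERK, the eIF2 kinase of the endoplasmic reticulum. In Ku, EIF2AK3 measured 9.39 and 7.57 FPKM in the DMSO libraries, 5.98 and 5.16 at 50 nM and 1.23 and 1.32 at 250 nM. In Cov, EIF2AK3 measured 10.3 and 12.2 FPKM in the DMSO libraries, 3.41 and 4.52 at 50 nM and 1.14 and 0.995 at 250 nM. The 3 groups stood apart in both lines, and at 250 nM 15.0% was left in Ku and 9.49% in Cov. Its log2 fold change was -2.05 ± 0.15 (SE, n = 2 per group, adjusted p = 4.16e-05) in Ku and -2.56 ± 0.14 (SE, n = 2 per group, adjusted p = 2.40e-06) in Cov, and it was called lower under the other scalings too. Of the other kinases of eIF2, EIF2AK1, known to respond to heme shortage, kept 48.4% and 43.3%. EIF2AK2, the kinase PKR that binds double-stranded RNA, kept 43.4% in Ku and 23.3% in Cov. EIF2AK4, the amino acid sensor GCN2, kept 31.0% and 31.4%. All 4 kinase genes were called lower per cell at 250 nM in both lines (68.6% and 84.0% of all active genes), but relative to the median gene EIF2AK3 alone was (22.9% and 22.4% of all).

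The eIF2B complex recharges eIF2 with GTP, and EIF2B5 encodes its catalytic subunit. EIF2B5 measured 24.5 and 22.9 FPKM in the DMSO libraries, 16.4 and 16.5 at 50 nM and 8.69 and 8.71 at 250 nM in Ku. In Cov, EIF2B5 measured 29.4 and 30.5 FPKM in the DMSO libraries, 13.5 and 12.7 at 50 nM and 8.30 and 8.48 at 250 nM. No dose groups overlapped. Its log2 fold change at 250 nM was -1.35 ± 0.08 (SE, n = 2 per group, adjusted p = 2.40e-05) in Ku and -1.72 ± 0.08 (SE, n = 2 per group, adjusted p = 1.55e-06) in Cov, with 0.01 and -0.21 under median-of-ratios scaling. The 5 subunits ran from 22.4% (EIF2B4) to 58.3% (EIF2B3) of DMSO in Ku and from 27.2% (EIF2B4) to 40.5% (EIF2B3) in Cov. Per cell, 4 of 5 were called lower in Ku (68.6% of all active genes) and 5 of 5 in Cov (84.0%), and relative to the median gene EIF2B4 was called lower in Ku (22.9% of all), while the Cov values ran from -0.46 to 0.06. With median-of-ratios scaling EIF2B4 was called lower (19% of all) and EIF2B3 higher (11.1%) in Ku. The ratio of EIF2B4 to EIF2B3 went from 0.640 and 0.715 in Ku DMSO to 0.229 and 0.292 at 250 nM. In Cov it went from 1.00 and 0.960 to 0.642 and 0.676. These were the genes with the least and the most left, so a shift in their ratio follows from the choice.

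The eIF3 complex, the largest of the factors and a bridge between the small subunit and the mRNA, showed a wide spread. Of its 14 genes, 11 were called lower per cell in Ku at 250 nM (68.6% of all active genes, 85.2% of those above 10 FPKM) and 13 in Cov (84.0% and 96.6%), which is near those shares. Relative to the median gene 4 were called higher in Ku (EIF3H, EIF3K, EIF3L and EIF3CL, the last under 1 FPKM), where 14.8% of all active genes were, and 2 lower in Cov (EIF3A and EIF3J), where 22.4% were. With median-of-ratios scaling EIF3C, EIF3F, EIF3H, EIF3I, EIF3K and EIF3L were called higher in both lines (11.1% and 8.57% of all). EIF3A was called lower in Cov with that scaling (18.9% of all). EIF3A encodes the largest subunit, the core of the complex. In Ku, EIF3A measured 124 and 114 FPKM in the DMSO libraries, 97.9 and 91.1 at 50 nM and 40.8 and 39.8 at 250 nM. In Cov, EIF3A measured 182 and 206 FPKM in the DMSO libraries, 91.8 and 97.5 at 50 nM and 40.2 and 40.6 at 250 nM. The groups did not overlap, and EIF3A was the lowest eIF3 gene in Ku with 33.9% left. In Cov 20.8% was left. Its log2 fold change was -1.54 ± 0.07 (SE, n = 2 per group, adjusted p = 1.13e-05) in Ku and -2.23 ± 0.09 (SE, n = 2 per group, adjusted p = 9.69e-07) in Cov, and -0.10 and -0.64 under median-of-ratios scaling.

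EIF3H, a subunit with an MPN domain, kept the most of the eIF3 genes in Ku at 250 nM, while in Cov EIF3K, EIF3C and EIF3I kept more. EIF3H measured 595 and 534 FPKM in the DMSO libraries, 603 and 556 at 50 nM and 469.7 and 406 at 250 nM in Ku. In Cov, EIF3H measured 815 and 923 FPKM in the DMSO libraries, 589 and 656 at 50 nM and 476 and 449 at 250 nM. In Ku the 50 nM libraries overlapped DMSO and both 250 nM libraries lay below. In Cov the 3 groups stood apart. At 250 nM 77.6% of DMSO was left in Ku, where EIF3H was not called (-0.37 ± 0.10 SE, n = 2 per group, adjusted p = 0.0123), and 53.2% in Cov, where it was called lower per cell (-0.91 ± 0.10 SE, n = 2 per group, adjusted p = 8.75e-05). Relative to the median gene the values were 0.74 and 0.40. The ratio of EIF3A to EIF3H went from 0.208 and 0.213 in Ku DMSO through 0.162 and 0.164 to 0.0868 and 0.0980 at 250 nM. In Cov it went from 0.224 and 0.223 through 0.156 and 0.149 to 0.0844 and 0.0904. No dose groups overlapped in this ratio, whose genes had the least and the most left of the complex in Ku.

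EIF3E, another subunit of the complex, took a middle place. EIF3E measured 906 and 793 FPKM in the DMSO libraries, 780.1 and 723 at 50 nM and 525 and 451 at 250 nM in Ku. In Cov, EIF3E measured 575 and 656 FPKM in the DMSO libraries, 351 and 429.5 at 50 nM and 264 and 222 at 250 nM. Its groups did not overlap. At 250 nM its log2 fold change was -0.80 ± 0.11 (SE, n = 2 per group, adjusted p = 0.000489) in Ku and -1.34 ± 0.14 (SE, n = 2 per group, adjusted p = 4.62e-05) in Cov per cell, and 0.66 and 0.27 with median-of-ratios scaling. The Ku call was lost without either DMSO library, either 50 nM library or replicate 2 of 250 nM, with values from -0.90 to -0.69. It was also lost with no minimum on FPKM or no mean-variance trend.

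EIF3K and EIF3L encode subunits that sit together at the edge of the complex. EIF3K measured 615 and 583 FPKM in the DMSO libraries, 561 and 543 at 50 nM and 404 and 383 at 250 nM in Ku. In Cov, EIF3K measured 356 and 404 FPKM in the DMSO libraries, 259.5 and 256 at 50 nM and 211 and 213 at 250 nM. Its groups did not overlap, and 65.7% and 55.8% of DMSO was left at 250 nM. EIF3L measured 174 and 150.0 FPKM with DMSO, 171 and 156 with 50 nM and 113 and 104 with 250 nM in Ku. In Cov, EIF3L measured 181 and 203 FPKM with DMSO, 121 and 125 with 50 nM and 96.1 and 93.3 with 250 nM. In Ku its 50 nM libraries overlapped DMSO and its 250 nM libraries lay below both. EIF3L was not called in Ku at 250 nM (-0.58 ± 0.09 SE, n = 2 per group, adjusted p = 0.00132) and was called lower per cell in Cov (-1.01 ± 0.09 SE, n = 2 per group, adjusted p = 1.65e-05), with 0.53 and 0.30 relative to the median gene. For EIF3K the log2 fold change at 250 nM was -0.61 ± 0.06 (SE, n = 2 per group, adjusted p = 0.000164) in Ku and -0.84 ± 0.09 (SE, n = 2 per group, adjusted p = 5.78e-05) in Cov per cell, and 0.50 and 0.47 relative to the median gene.

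EIF3C encodes a core subunit and has a near copy, EIF3CL, on the same chromosome 16. EIF3C measured 326 and 305 FPKM in the DMSO libraries, 277 and 275 at 50 nM and 207 and 198 at 250 nM in Ku. In Cov, EIF3C measured 419.9 and 485 FPKM in the DMSO libraries, 285 and 291 at 50 nM and 244 and 257 at 250 nM. Its groups did not overlap, and 64.2% and 55.4% was left at 250 nM. EIF3CL lay between 0.12 and 0.26 FPKM in 11 of the 12 libraries and at 10.7 in replicate 1 of Cov DMSO, so this gene was active through a single library and on the spike-in scale neither line called it. Reads of EIF3C and EIF3CL cannot be told apart with certainty. The other eIF3 genes at 250 nM kept from 41.4% (EIF3J) to 64.1% (EIF3I) in Ku and from 26.2% (EIF3J) to 55.2% (EIF3I) in Cov.

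EIF4A1 and EIF4A2 encode paralogous RNA helicases of eIF4F, and they differed in dose response. EIF4A1, the most abundant member by FPKM in Ku DMSO, measured 1378 and 1252 FPKM in the DMSO libraries, 1113 and 1057 at 50 nM and 756 and 710.5 at 250 nM in Ku. In Cov, EIF4A1 measured 889 and 1017 FPKM in the DMSO libraries, 548 and 570.2 at 50 nM and 389.7 and 396 at 250 nM. Each dose lay below the one before it, without overlap. EIF4A2 (chr3:186500994-186507686 on GRCh37, plus strand) measured 218 and 207 FPKM with DMSO, 93.7 and 84.5 with 50 nM and 88.6 and 86.7 with 250 nM in Ku. In Cov, EIF4A2 measured 229 and 259 FPKM with DMSO, 68.4 and 84.8 with 50 nM and 74.2 and 70.9 with 250 nM. In both lines EIF4A2 was below DMSO in every treated library, and the 2 doses overlapped each other. At 50 nM 41.9% was left in Ku and 31.4% in Cov, and 11.4% and 11.0% of all genes above 10 FPKM in DMSO had less. At 250 nM 41.2% and 29.7% was left.

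The log2 fold change of EIF4A2 at 50 nM was -1.25 ± 0.07 (SE, n = 2 per group, adjusted p = 0.00024) in Ku and -1.67 ± 0.12 (SE, n = 2 per group, adjusted p = 2.87e-05) in Cov, and -0.80 and -0.81 relative to the median gene. With median-of-ratios scaling 0 members were called lower in Cov at this dose (0.772% of all active genes), so the Cov call of EIF4A2 was lost. In Ku 1 member was called lower with that scaling (2.72% of all), against 3 on the spike-in scale. Whether that member was EIF4A2 is not given here. The Ku call, like those of EIF1B and EIF5 at this dose, was lost whichever of the 6 libraries was left out. From 50 to 250 nM the change of EIF4A2 was -0.02 ± 0.07 (SE, n = 2 per group, adjusted p = 0.791) in Ku, with a 95% interval of -0.19 to 0.15, and -0.07 ± 0.12 (SE, n = 2 per group, adjusted p = 0.654) in Cov, with an interval of -0.36 to 0.22. The median active gene moved by -0.62 and -0.41 over that step. As a level, EIF4A2 at 250 nM stood at 98.3% of 50 nM in Ku, where 98.8% of genes above 10 FPKM kept less, and at 94.7% in Cov, where 94.2% kept less. Relative to the median gene the step was 0.64 in Ku and 0.38 in Cov, so its direction depends on the scale. On that scale EIF4A2 was called higher over this step in Ku, as 1.92% of all active genes were, and not in Cov. Against DMSO at 250 nM it was -1.27 ± 0.07 in Ku and -1.74 ± 0.12 in Cov per cell, but 0.18 and -0.13 with median-of-ratios scaling.

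The ratio of EIF4A2 to EIF4A1 was 0.159 and 0.165 in Ku DMSO, 0.0842 and 0.0800 at 50 nM and 0.117 and 0.122 at 250 nM. In Cov it was 0.258 and 0.255, then 0.125 and 0.149, then 0.190 and 0.179. In both lines it was lowest at 50 nM and lay between that and DMSO at 250 nM, with no overlap. EIF4A1 at 250 nM changed by -0.84 ± 0.08 (SE, n = 2 per group, adjusted p = 0.000108) in Ku and -1.27 ± 0.10 (SE, n = 2 per group, adjusted p = 9.12e-06) in Cov per cell, and by 0.27 and 0.03 relative to the median gene. Its Ku call was lost without replicate 2 of 250 nM (-0.80). EIF4A3, the helicase of the exon junction complex, kept 102% at 50 nM and 44.5% at 250 nM in Ku, and 58.2% and 28.3% in Cov. The helicase cofactors EIF4B and EIF4H kept 36.5% and 47.9% in Ku at 250 nM and 38.2% and 42.2% in Cov. All 5 genes of the group were called lower per cell at 250 nM in both lines (68.6% and 84.0% of all active genes), and relative to the median gene the values ran from -0.32 to 0.27 in Ku and from -0.49 to 0.07 in Cov.

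**Figure D3:**
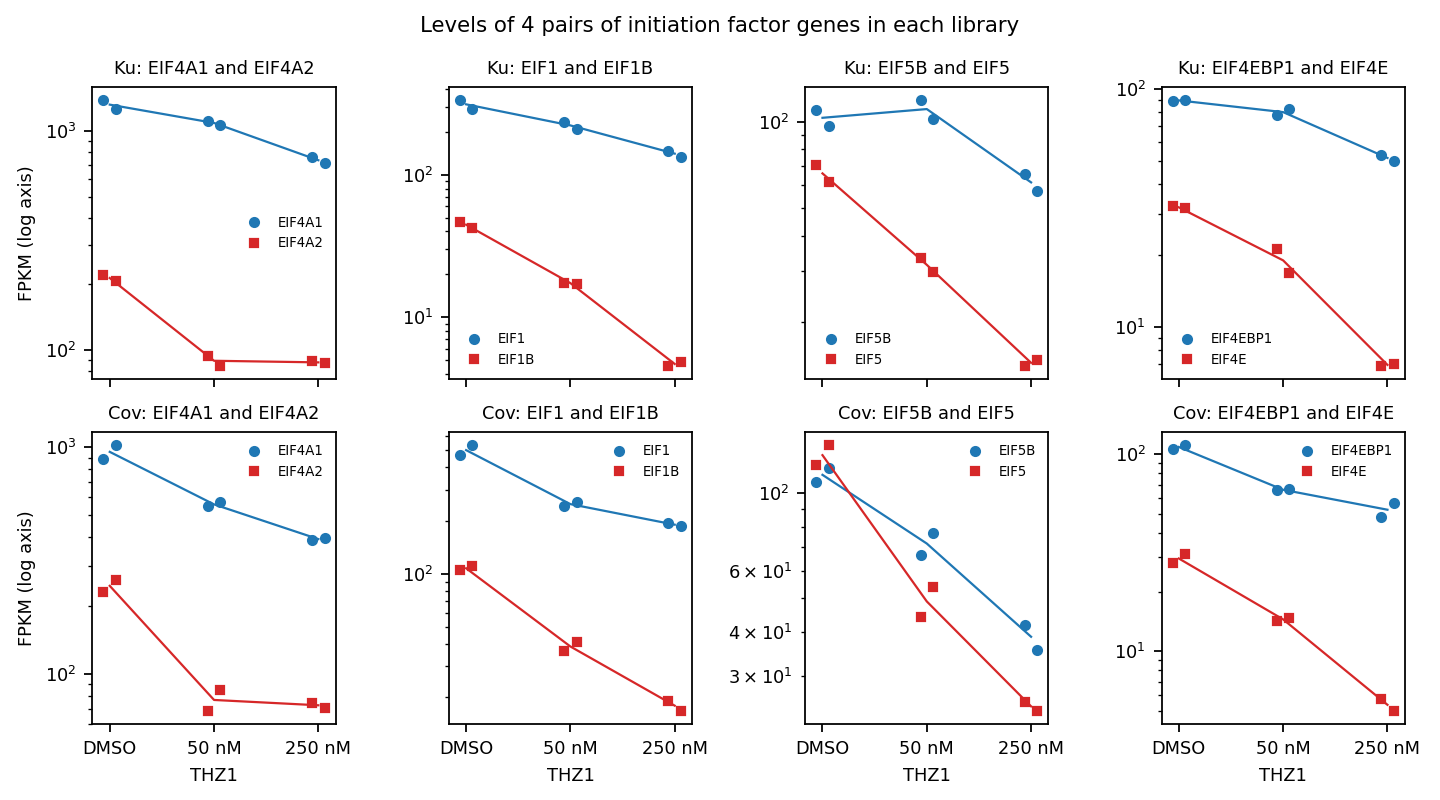
FPKM on a log axis (vertical) in every library at DMSO, 50 nM and 250 nM THZ1 (horizontal) for 4 pairs of genes chosen after their values were seen, with Ku above and Cov below; points are libraries and lines join group means. EIF4A2 is nearly level from 50 to 250 nM, at 98.3% in Ku and 94.7% in Cov, and EIF1B, EIF5 and EIF4E end further below DMSO than EIF1, EIF5B and EIF4EBP1; all 8 genes are lower than DMSO at 250 nM on this spike-in scale, but EIF4A1, EIF4EBP1 and, in Ku, EIF5B turn to higher relative to the median gene.

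EIF4E encodes the protein that binds the mRNA cap. EIF4E measured 32.1 and 31.6 FPKM in the DMSO libraries, 21.3 and 16.8 at 50 nM and 6.88 and 7.0 at 250 nM in Ku. In Cov, EIF4E measured 28.1 and 31.0 FPKM in the DMSO libraries, 14.3 and 14.7 at 50 nM and 5.73 and 4.97 at 250 nM. The 3 groups did not overlap in either line. At 250 nM 21.8% was left in Ku and 18.1% in Cov, a log2 fold change of -2.05 ± 0.12 (SE, n = 2 per group, adjusted p = 2.09e-05) and -2.27 ± 0.10 (SE, n = 2 per group, adjusted p = 1.18e-06). EIF4E was also called lower relative to the median gene in both lines (-0.94 and -0.96), but with median-of-ratios scaling in Cov alone (-0.78, against -0.69 in Ku). EIF4E2, the related cap-binding protein 4EHP, kept 41.1% and 27.4%. EIF4E3, another relative, was scarce. It measured 1.03 and 0.914 FPKM in the DMSO libraries, 0.793 and 0.507 at 50 nM and 0.429 and 0.445 at 250 nM in Ku. In Cov, EIF4E3 measured 4.51 and 4.94 FPKM in the DMSO libraries, 2.33 and 2.68 at 50 nM and 1.91 and 1.65 at 250 nM. EIF4E3 was not called in Ku, where at about 1 FPKM the pseudocount of 1 compresses its change, and it fell per cell in Cov (-1.04 ± 0.11, and 0.27 relative to the median gene).

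EIF4EBP1 encodes the inhibitor that sequesters eIF4E until mTOR phosphorylates it. EIF4EBP1 measured 89.4 and 89.8 FPKM in the DMSO libraries, 77.7 and 82.3 at 50 nM and 52.7 and 50.0 at 250 nM in Ku. In Cov, EIF4EBP1 measured 107 and 111 FPKM in the DMSO libraries, 65.7 and 66.3 at 50 nM and 48.2 and 56.4 at 250 nM. The groups stood apart in both lines. Per cell it fell at 250 nM (-0.79 ± 0.06 SE, n = 2 per group, adjusted p = 5.14e-05 in Ku and -1.05 ± 0.10 SE, n = 2 per group, adjusted p = 2.35e-05 in Cov), with 0.32 and 0.26 relative to the median gene. EIF4EBP1 kept more than EIF4E, so their ratio went up in both lines. EIF4EBP1 over EIF4E was 2.78 and 2.84 in Ku DMSO, 3.65 and 4.89 at 50 nM and 7.67 and 7.14 at 250 nM. In Cov it was 3.80 and 3.57, then 4.59 and 4.50, then 8.40 and 11.3. The groups did not overlap, and the ratio at 250 nM was 2.63 times DMSO in Ku and 2.68 times in Cov. These are mRNA ratios, and no protein was measured.

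EIF4ENIF1 encodes 4E-T, which carries eIF4E into the nucleus and into P-bodies. EIF4ENIF1 measured 9.88 and 7.80 FPKM in the DMSO libraries, 5.05 and 4.73 at 50 nM and 0.778 and 0.710 at 250 nM in Ku. In Cov, EIF4ENIF1 measured 8.53 and 9.32 FPKM in the DMSO libraries, 2.82 and 3.66 at 50 nM and 1.19 and 1.21 at 250 nM. No groups overlapped, and 8.42% and 13.4% was left at 250 nM. Its log2 fold change was -2.49 ± 0.15 (SE, n = 2 per group, adjusted p = 2.08e-05) in Ku and -2.17 ± 0.12 (SE, n = 2 per group, adjusted p = 2.52e-06) in Cov, and it was called lower under every scaling. EIF4EBP2, another binding protein, kept 36.2% in Ku and 22.4% in Cov. EIF4EBP3, also of this kind, measured 29.3 and 28.9 FPKM in the DMSO libraries, 22.3 and 16.9 at 50 nM and 15.5 and 16.1 at 250 nM in Ku. In Cov, EIF4EBP3 measured 0.135 and 0.149 FPKM in the DMSO libraries, 1.96 and 0.115 at 50 nM and 0.0993 and 1.18 at 250 nM. In Ku its treated libraries lay below DMSO without a call at 250 nM (-0.84 ± 0.13 SE, n = 2 per group, adjusted p = 0.00110). In Cov its 2 values above 1 FPKM came from single libraries of the treated groups, so it has no fold to report. EIF4EBP3 shares its exons with the readthrough gene ANKHD1-EIF4EBP3, so reads of the 2 cannot be told apart with certainty. In Cov the readthrough gene measured 11.2 and 11.9 FPKM with DMSO, 2.44 and 3.56 with 50 nM and 2.11 and 1.43 with 250 nM. Its means in Ku were 3.35, 1.55 and 1.04 FPKM. The low EIF4EBP3 values of Cov DMSO therefore do not show that the locus was silent.

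EIF4G1 encodes the main scaffold that joins eIF4E, eIF4A and eIF3. EIF4G1 measured 251 and 229.6 FPKM in the DMSO libraries, 209.7 and 199 at 50 nM and 98.4 and 97.9 at 250 nM in Ku. In Cov, EIF4G1 measured 321 and 357 FPKM in the DMSO libraries, 196 and 201 at 50 nM and 121 and 130.1 at 250 nM. Its groups did not overlap. At 250 nM its log2 fold change was -1.28 ± 0.07 (SE, n = 2 per group, adjusted p = 1.40e-05) in Ku and -1.42 ± 0.09 (SE, n = 2 per group, adjusted p = 3.78e-06) in Cov per cell, and 0.17 and 0.19 with median-of-ratios scaling. EIF4G2, the scaffold DAP5 that lacks the eIF4E site, kept 65.8% in Ku and 41.2% in Cov. EIF4G3 changed mostly at the lower dose in both lines, with 65.8% left at 50 nM and 54.3% at 250 nM in Ku, and 39.4% and 34.0% in Cov. All 3 scaffold genes were called lower per cell at 250 nM in both lines (68.6% and 84.0% of all active genes), while relative to the median gene EIF4G2 was called higher in Ku (14.8% of all), and the Cov values ran from -0.17 to 0.03. With median-of-ratios scaling EIF4G2 and EIF4G3 were called higher in Ku (11.1% of all).

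EIF5 encodes the GTPase-activating factor of eIF2, and EIF5B the GTPase that joins the large subunit. EIF5 measured 70.4 and 61.4 FPKM in the DMSO libraries, 33.4 and 29.8 at 50 nM and 14.0 and 14.7 at 250 nM in Ku. In Cov, EIF5 measured 120.0 and 137 FPKM in the DMSO libraries, 44.2 and 53.8 at 50 nM and 25.3 and 23.8 at 250 nM. Its groups did not overlap in either line. EIF5B measured 109.6 and 96.5 FPKM with DMSO, 119 and 102 with 50 nM and 65.4 and 57.3 with 250 nM in Ku. In Cov, EIF5B measured 108 and 118 FPKM with DMSO, 66.4 and 77.1 with 50 nM and 42.1 and 35.6 with 250 nM. In Ku the 50 nM libraries of EIF5B overlapped DMSO and both 250 nM libraries lay below, while in Cov the 3 groups stood apart. The log2 fold change of EIF5 at 250 nM was -2.12 ± 0.10 (SE, n = 2 per group, adjusted p = 1.13e-05) in Ku and -2.34 ± 0.12 (SE, n = 2 per group, adjusted p = 1.67e-06) in Cov, and it was called lower under every scaling. For EIF5B it was -0.74 ± 0.11 (SE, n = 2 per group, adjusted p = 0.00086) in Ku and -1.52 ± 0.12 (SE, n = 2 per group, adjusted p = 1.06e-05) in Cov per cell, but 0.70 and 0.07 with median-of-ratios scaling. The Ku call of EIF5B was lost without either DMSO or either 250 nM library, with values from -0.83 to -0.65, and also with no minimum on FPKM or no mean-variance trend.

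The ratio of EIF5 to EIF5B was 0.642 and 0.636 in Ku DMSO, 0.281 and 0.291 at 50 nM and 0.215 and 0.257 at 250 nM. In Cov it was 1.12 and 1.16, 0.666 and 0.697 and 0.601 and 0.669. Most of this shift was in place at 50 nM. In Ku every group stood apart, and in Cov the doses overlapped each other below DMSO.

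**Figure D4:**
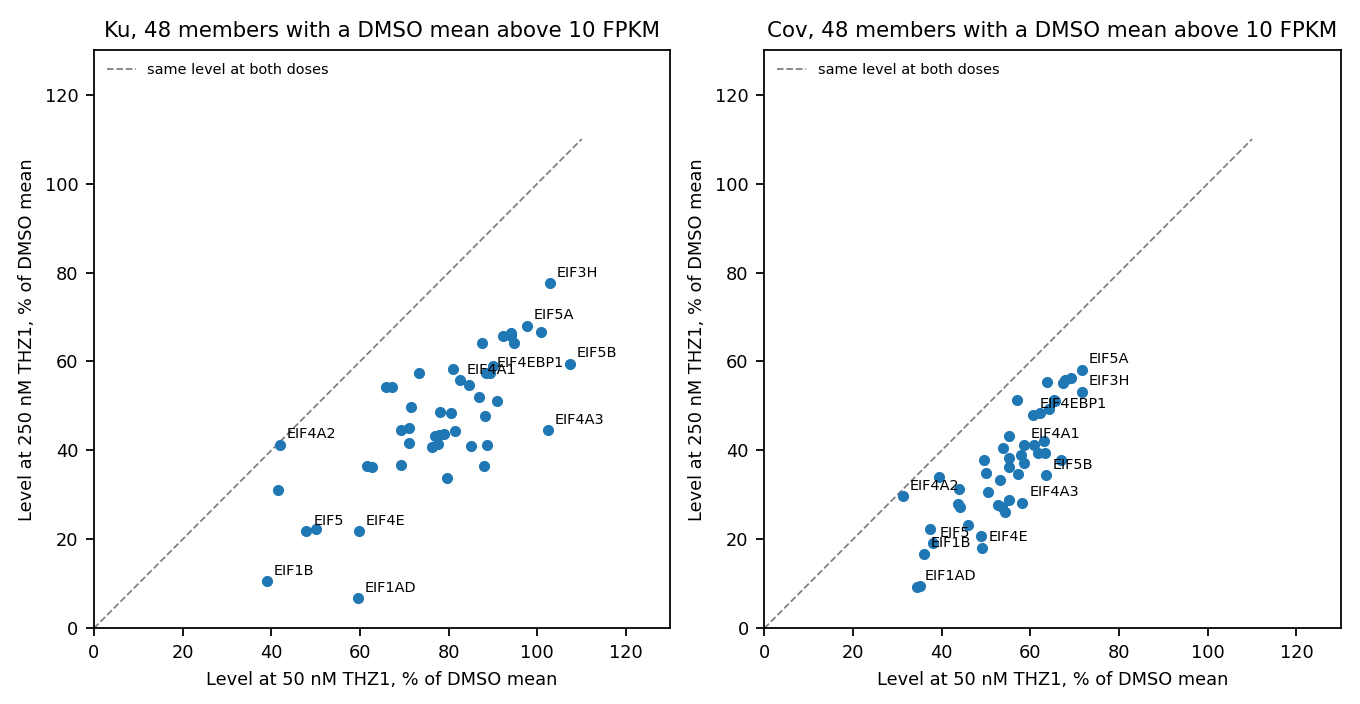
Each point is 1 member with a DMSO mean above 10 FPKM, placed by its level at 50 nM (horizontal axis) and at 250 nM THZ1 (vertical axis), both in percent of the DMSO mean; the dashed line marks equal levels at both doses, and the axes share the DMSO libraries. EIF4A2 lies next to that line in both lines (41.9% and 41.2% in Ku, 31.4% and 29.7% in Cov), while EIF1AD lies furthest down in both; on the spike-in scale shown every member lies under 100% at 250 nM, which for EIF5A and others turns to higher relative to the median gene.

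EIF5A, whose product carries hypusine and aids the ribosome over hard peptide bonds, kept the most of its DMSO level among well expressed members in Cov and was second to EIF3H in Ku. EIF5A measured 1103 and 1052 FPKM in the DMSO libraries, 1049 and 1054 at 50 nM and 761 and 705 at 250 nM in Ku. In Cov, EIF5A measured 841 and 945 FPKM in the DMSO libraries, 632 and 646 at 50 nM and 502 and 535 at 250 nM. In Ku the 50 nM libraries overlapped DMSO in part and both 250 nM libraries lay below, and in Cov the groups stood apart. Per cell its log2 fold change at 250 nM was -0.56 ± 0.07 (SE, n = 2 per group, adjusted p = 0.000381) in Ku and -0.78 ± 0.10 (SE, n = 2 per group, adjusted p = 0.000121) in Cov, and relative to the median gene it turned to 0.55 and 0.53. Leaving out any 1 library ended the Ku call (-0.61 to -0.50), as did no minimum on FPKM or a fit of only the 2 groups, and replicate 1 of 250 nM did so in Cov (-0.74). EIF5A2, a scarce paralog, fell further, with 25.9% and 27.5% left. EIF5AL1, an EIF5A-like gene on chromosome 10, measured 104 and 95.8 FPKM in the DMSO libraries, 94.7 and 92.9 at 50 nM and 69.8 and 62.8 at 250 nM in Ku. In Cov, EIF5AL1 measured 77.3 and 88.2 FPKM in the DMSO libraries, 55.7 and 58.7 at 50 nM and 44.6 and 48.7 at 250 nM. Its FPKM was between 0.0880 and 0.0940 times that of EIF5A in all 12 libraries, so its own level cannot be told apart from reads of EIF5A.

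EIF6 encodes the factor that keeps the large subunit from joining too early. EIF6 measured 274 and 258 FPKM in the DMSO libraries, 247 and 236 at 50 nM and 139 and 133 at 250 nM in Ku. In Cov, EIF6 measured 393 and 445 FPKM in the DMSO libraries, 268 and 253 at 50 nM and 187 and 220.0 at 250 nM. All dose groups stood apart. At 250 nM its log2 fold change was -0.96 ± 0.06 (SE, n = 2 per group, adjusted p = 2.45e-05) in Ku and -1.04 ± 0.11 (SE, n = 2 per group, adjusted p = 5.77e-05) in Cov per cell, and 0.15 and 0.27 relative to the median gene.

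Genes that work with the initiation factors were taken from lists of 42 genes, all active. Per cell, 3 of 42 were called lower in Ku at 50 nM (11.3% of all active genes), 33 at 250 nM (68.6%) and 24 from 50 to 250 nM (36.0%). In Cov the counts were 28 (70.5%), 41 (84.0%) and 17 (24.4%). Relative to the median gene 9 of 42 were called lower (22.9% of all) and 7 higher (14.8%) in Ku at 250 nM, and 10 lower (22.4%) and 2 higher (13.9%) in Cov. Of those higher, GSPT2 (Ku) and PAIP2B (both lines) lie near or under 1 FPKM, where log2(FPKM + 1) moves little. The counts lower relative to the median gene lie near the share of all genes. At 250 nM the 8 kinases and phosphatases that act on initiation had a median of 21.4% left in Ku and 22.9% in Cov. All 8 were called lower per cell in both lines, where 68.6% and 84.0% of all active genes were, but 4 in Ku and 3 in Cov relative to the median gene (22.9% and 22.4% of all). The 8 elongation factor genes kept 56.4% (4 called) and 53.2% (8 called), and the 6 genes of poly(A)-binding proteins and their partners 64.1% (3 called) and 50.7% (5 called). The 6 termination and recycling genes kept 38.6% (5 called) and 26.9% (6 called). The 10 other listed genes linked to initiation, whether they aid or restrain it, kept 44.8% (9 called) and 28.8% (10 called). The pairs of hypusine enzymes (40.7% and 47.6%) and of mitochondrial initiation factors (22.4% and 27.3%) were called lower in both lines. MKNK1, a kinase that phosphorylates eIF4E, measured 18.3 and 13.9 FPKM in the DMSO libraries, 5.19 and 5.64 at 50 nM and 4.17 and 4.42 at 250 nM in Ku. In Cov, MKNK1 measured 12 and 12.5 FPKM in the DMSO libraries, 4.98 and 5.30 at 50 nM and 4.51 and 4.13 at 250 nM. Like EIF4A2, MKNK1 changed mostly at 50 nM, with 79.3% and 84.0% of its 50 nM level left at 250 nM; it was picked out after its values were seen. Its paralog MKNK2 fell mostly between the doses in Ku, with 77.5% of DMSO left at 50 nM and 22.0% of the 50 nM level at 250 nM, and kept 59.0% and 45.7% in Cov.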

How the data were processed

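Polyadenylated RNA was measured in 12 libraries, 2 per condition and line. The authors used HISAT and hg19 for alignment, then Cufflinks and Cuffnorm, and scaled the deposited FPKM of each line to ERCC spike-ins. Their versions and the counts are not given. Here, ERCC rows (92) and genes not above 1 FPKM in any library were left out. log2(FPKM + 1) was fitted per line with limma 3.58.1 in R 4.3.3 (mean-variance trend, 3 groups of 2, two-sided) and adjusted by Benjamini-Hochberg over all 14251 active genes. With 2 against 2 libraries an exact permutation test cannot go below p = 0.33. Tables were built with data.table (version 1.17.8), pandas 2.3.3 and numpy 2.4.6 in Python 3.11.15 and drawn with matplotlib 3.10.9. Values in every library are given for 15 genes set by role and, per line, for the 5 active members with the lowest and the 5 with the highest log2 fold change at 250 nM. Among these EIF3CL is the exception, given mostly as a range. Members and lists were chosen with earlier results of these data known. Other filters, pseudocount, scalings, thresholds, a replicate block and left-out libraries were tried.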

Additional observations from a re-analysis of the deposited data

How the results depend on the processing

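Counts of members called lower, in the order Ku 50 nM against DMSO, 250 nM against DMSO and 250 nM against 50 nM and then the same for Cov, were 3, 46, 27, 44, 51 and 18. Median-of-ratios scaling gave 1, 6, 4, 0, 8 and 3, and median-centred values gave 7 and 6 for 250 nM against DMSO and against 50 nM in Ku and 1, 10 and 4 in Cov. An adjusted p under 0.05 gave 16 for Ku 50 nM, 41 for Ku 250 against 50 nM and 31 for Cov 250 against 50 nM. A log2 fold change beyond 1 gave 29, 12, 14 and 7 for Ku 250 nM, Ku 250 against 50 nM, Cov 50 nM and Cov 250 against 50 nM. No minimum gave 0, 9 and 7 for Ku 50 nM and the 2 comparisons with 50 nM, a minimum of 10 FPKM gave 5 and the fit of only 2 groups 0 for Ku 50 nM. The replicate number as a block gave 3 for Cov 250 against 50 nM, but the numbers pair no samples (correlation of deviations -0.0703 to 0.0282). Leaving out 1 library gave 0 to 0, 29 to 43, 3 to 24, 14 to 44, 50 to 52 and 5 to 18.

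Of the 15 genes set by role, these log2 fold changes at 250 nM turned positive. Median-of-ratios scaling gave EIF1 0.31, EIF1AX 0.28, EIF2S1 0.16, EIF2B5 0.013, EIF3E 0.66, EIF4A1 0.62, EIF4A2 0.18, EIF4EBP1 0.65, EIF4G1 0.17, EIF5A 0.90, EIF5B 0.70 and EIF6 0.49 in Ku. In Cov it gave EIF1 0.22, EIF1AX 0.22, EIF3E 0.27, EIF4A1 0.34, EIF4EBP1 0.55, EIF4G1 0.19, EIF5A 0.83, EIF5B 0.072 and EIF6 0.57. Median centring gave EIF3E 0.31, EIF4A1 0.27, EIF4EBP1 0.32, EIF5A 0.55, EIF5B 0.37 and EIF6 0.15 in Ku and EIF4A1 0.034, EIF4EBP1 0.26, EIF5A 0.53 and EIF6 0.27 in Cov. These scalings remove the shift shared by most genes; beyond that the cause was not tested. In Ku the calls of EIF3E, EIF5A and EIF5B were lost with no minimum, those of EIF3E and EIF5B without the mean-variance trend, and that of EIF5A in the fit of only 2 groups. No other setting turned a direction, and a pseudocount of 0.1 or a minimum on condition means left all 30 values on their side of the threshold. That pseudocount did move the median of all active genes at 250 nM, to -1.39 in Ku and -1.55 in Cov. The other scalings were fitted with a pseudocount of 1 only. Without counts, counting error is unknown. In a fit that leaves out 1 library, the lone library is assumed to vary like the other groups.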

Other observations

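Of the partner genes, PELO, a ribosome rescue factor, measured 27.2 and 25.7 FPKM in the DMSO libraries, 18.5 and 18.9 at 50 nM and 1.04 and 1.23 at 250 nM in Ku. In Cov, PELO measured 13.6 and 14.9 FPKM in the DMSO libraries, 7.10 and 8.04 at 50 nM and 1.37 and 1.49 at 250 nM. The 250 nM libraries lay below all others in both lines, with 4.29% of DMSO left in Ku and 10.0% in Cov. PPP1R15A and PPP1R15B encode subunits that direct a phosphatase to eIF2. PPP1R15B kept 9.60% in Ku and 16.8% in Cov at 250 nM, and PPP1R15A kept 14.0% and 12.2%. These 3 genes were picked out after their values were seen.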
